A study of Rattus norvegicus with 3 samples.

Results

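The 5 genes described here, Crym, Thra, Thrb, Dio2 and Dio3, handle or read thyroid hormone inside cells and were chosen by name. Of the 32623 genes in the count matrices, 4 of these 5 have a row, namely Crym (ENSRNOG00000061215), Thra (ENSRNOG00000009066), Thrb (ENSRNOG00000006649) and Dio3 (ENSRNOG00000052017), and Dio2, the gene of the deiodinase that activates the hormone, was not analysed here. Levels were read in 30641 of 34927 barcodes, those with more than 500 and fewer than 5000 genes and under 25% of their molecules on mitochondrial genes. The cells came from the cochlea of untreated Sprague-Dawley rats at postnatal days 1, 7 and 14 (P1, P7 and P14). The tissue of several rats was pooled into 1 single-cell library per stage, so that stage, library and set of animals cannot be told apart. No test of a difference between stages was possible, and every interval below is an exact 95% interval that covers counting error only.

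Thyroid hormone enters cells through membrane transporters, and deiodinases then turn the prohormone T4 into the active T3 (Dio2) or degrade both (Dio3). Crym, mu-crystallin, is a cytosolic protein that binds T3. Thra and Thrb code for the nuclear receptors, which sit on DNA with retinoid X receptor partners and recruit coactivators or corepressors depending on whether T3 is bound. In rodents the hormone drives the maturation of the cochlea before the onset of hearing, Thrb is needed for normal hearing, and Dio3 is known to protect the immature cochlea from early exposure.

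The libraries held 12779 kept cells at P1, 12581 at P7 and 5281 at P14. The median depth was 6565 unique molecules (UMIs) per cell at P1, 6878 at P7 and 1614 at P14, so low levels were measured less precisely at P14. Between 16 and 53 barcodes were shared by each pair of libraries. Clustering of all kept cells without the thyroid pathway genes gave 26 clusters, of which 18 were named like a cell type from marker genes and 8 stayed unnamed. The named cells were 12980 connective tissue-like, 5665 glia-like, 1260 endothelium-like, 1127 immune-like, 680 pericyte and smooth muscle-like, 578 cochlear duct epithelium-like, 295 neuron-like and 21 hair cell-like cells. The sample labels give greater epithelial ridge cells for all libraries, whereas the study's methods describe the dissociated basal membrane of the cochlea without spiral ganglion, ligament and stria vascularis. The 12 epithelial markers together reached 6110 CPM (UMIs of a gene scaled to a fixed total, so that groups of cells of unequal depth can be compared) in the epithelium-like cluster 17 and 33.2 CPM in cluster 0, the largest cluster. Epcam, the epithelial adhesion molecule, was at 1428 CPM in cluster 17 and at 4.42 CPM in cluster 0.

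The mix of cells changed between the libraries. The glia-like class also changed its clusters, since at P1 1169 of its 1838 cells were in cluster 5, at P7 2225 of 3467 in cluster 2, and at P14 310 of 360 in cluster 20, which had 0 cells at P1 and 3 at P7. The connective tissue-like class had 5219 cells at P1, of which 3251 were in cluster 0, and 6024 at P7, of which 2513 were in cluster 1. At P14 1736 of its 1737 cells were in cluster 6, led by Coch, which held 3 cells at P1 and 4 at P7. Neuron-like cells were measured at P1 (288 cells, against 0 at P7 and 7 at P14). Endothelium-like cells numbered 165, 180 and 915 at P1, P7 and P14. The immune-like class changed its clusters too. At P1, P7 and P14 its macrophage-like cluster 23 had 107, 89 and 4 cells, and its B lineage-like cluster 22 had 1, 2 and 287. Its cluster 16 had 80, 86 and 471 cells. Erythroid marker genes summed to 774 CPM at P1, 1568 CPM at P7 and 3854 CPM at P14 over all kept cells, with all 4 of the erythroid markers in the matrices found at each stage, and their part in the results was not tested.

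Over all kept cells, the binding protein gene Crym was far lower at P14, the receptor gene Thra was lower at each later stage, and Thrb was higher at P7 and P14 than at P1. Crym was at 2716 CPM (266182 UMIs, interval 2706 to 2726) at P1, 2318 CPM (215728 UMIs, 2308 to 2328) at P7 and 43.3 CPM (504 UMIs, 39.6 to 47.2) at P14. Its level at P7 was 53.5 times that at P14 (interval 49.1 to 58.5), while P1 was 1.17 times P7 (1.17 to 1.18). Thra was at 242 CPM (23705 UMIs) at P1, 187 CPM (17384 UMIs) at P7 and 98.1 CPM (1142 UMIs) at P14. The P1 level of Thra was 1.30 times that of P7 (1.27 to 1.32), and the P7 level 1.90 times that of P14 (1.79 to 2.02). Thrb was at 17.2 CPM (1681 UMIs) at P1, 39.6 CPM (3688 UMIs) at P7 and 45.4 CPM (528 UMIs) at P14. Thrb at P7 was 2.31 times its P1 level (2.18 to 2.45), and at P14 1.14 times its P7 level (1.04 to 1.25). The latter difference was within counting error when the mitochondrial limit was 10%, where the log2 ratio was 0.041 (-0.097 to 0.18).

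Dio3, the inactivating deiodinase, was barely detected, with 1 UMI at P1, 7 at P7 and 15 at P14. These counts gave 0.0102 CPM (interval 0.000258 to 0.0569), 0.0752 CPM (0.0302 to 0.155) and 1.29 CPM (0.721 to 2.13). The P14 level was 17.1 times that of P7 (6.58 to 49.7), and the P7 level was 7.37 times that of P1 with an interval of 0.947 to 332. The difference between P1 and P7 was thus not detectable for Dio3 at this depth. Of the 15 UMIs at P14, 9 were in the unnamed cluster 13 and 5 in cluster 6. These clusters had 1 and 4 cells at P7, so the P14 to P7 ratio is mostly one of unlike sets of cells. The plot of levels by stage shows Crym and Thra in descending and Thrb in ascending order of stage.

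**Figure D1:**
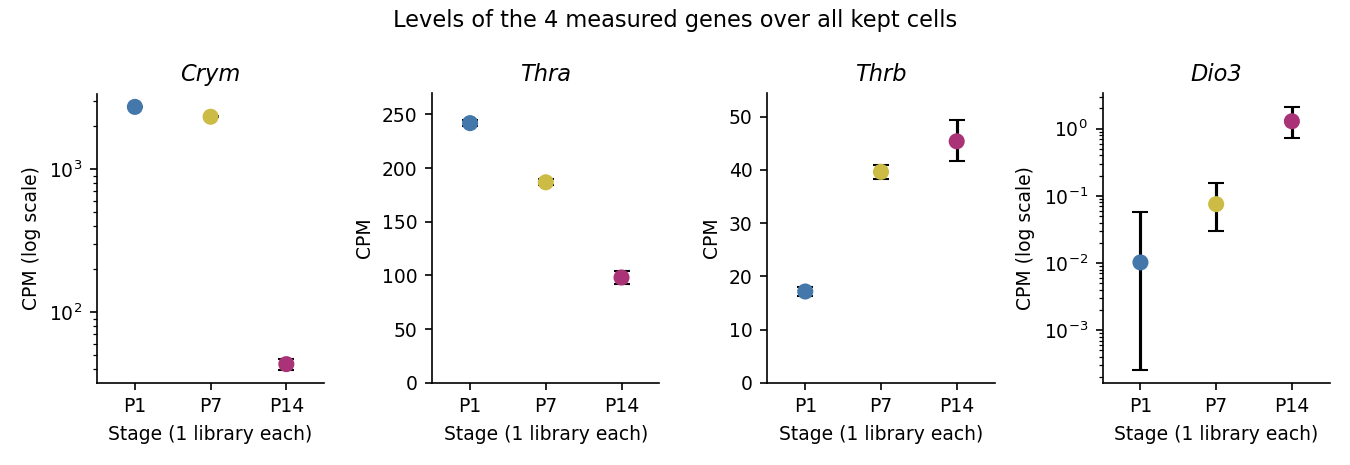
Level of Crym, Thra, Thrb and Dio3 in CPM over all kept cells at P1, P7 and P14, with 1 library per stage and bars for the 95% counting interval; Crym and Dio3 are on log axes. Crym stood at 2716, 2318 and 43.3 CPM, and Thrb at 17.2, 39.6 and 45.4 CPM.

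A gene was called different between stages when its CPM differed 2-fold or more and it had at least 50 UMIs over both stages together. Between P1 and P7, 1 of the 3 members with enough UMIs, Thrb, was higher at P7, beside 11.2% of 14860 genes, and none of the 3 was lower, beside 12.4%. Between P7 and P14, 1 of the 3, Crym, was lower at P14, beside 9.88% of 13977 genes, and none was higher, beside 24.4%. Dio3 had too few UMIs for these calls. The median log2 ratio of all genes tested was 0.05 for P7 against P1 and 0.26 for P14 against P7.

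Crym was read mainly in connective tissue-like cells of P1 and P7. These cells held 396765 of its 482414 UMIs (82.2%), and unnamed clusters held 15.0%. In connective tissue-like cells Crym was at 5660 CPM (5636 to 5684) at P1, 3805 CPM (3788 to 3823) at P7 and 92.5 CPM (81.9 to 104) at P14. The P14 level was that of cluster 6, which held 3 cells at P1 and 4 at P7. Clusters 0, 1, 8 and 12 had 0 cells at P14. No cluster of this class was therefore compared between P7 and P14, and the levels are of unlike sets of cells. At P1 the next named class, pericyte and smooth muscle-like cells, was at 483 CPM, so that the connective tissue-like level was 11.7 times higher (11.0 to 12.5). At P7 the next named class was immune-like cells at 680 CPM, a ratio of 5.60 (5.25 to 5.97). Unnamed clusters are not in this ranking, and some were nearer to the connective tissue-like level. At P1 and P7, cluster 7 was at 1654 and 3150.5 CPM, cluster 4 at 1098 and 1838 CPM, and cluster 3 at 629 and 1112 CPM. The mostly doublet-marked cluster 14 was at 2335 and 2281 CPM.

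Among clusters, Crym was highest in cluster 0 (leading genes Isyna1, Crym and Col9a3) at 6995 CPM (6963 to 7026) and in cluster 12 (Gcg, Car3 and Cnmd) at 6947 CPM (6892 to 7002), and the intervals of these 2 overlapped. Cluster 1 (Sfrp4, Gdf10 and Tac1) followed at 4049 CPM, cluster 9 (the division genes Cenpf, Top2a and Mki67) at 2583 CPM, and cluster 14, of which Scrublet marked 86.1% as doublets, at 2299 CPM. Connective tissue-like cells were not uniform, since cluster 8 (Aard, Col15a1 and Lepr) was at 513 CPM and cluster 6 (Coch and Dmp1) at 91.9 CPM. The lowest level was 5.46 CPM in the B lineage-like cluster 22. Within cluster 0 Crym was at 7108 CPM at P1 and 6567 CPM at P7, and in cluster 12 it was at 5680 CPM at P1 and 7141 CPM at P7. Over the 17 clusters with at least 50 cells at both stages and 50 UMIs, the P7 to P1 ratio of Crym ran from 0.494 in cluster 9 to 1.90 in cluster 7, with a median of 1.05. Clusters thus went either way, and the share of cells in each cluster differed between P1 and P7 as well. The part of each in the ratio over all cells was not tested.

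Crym UMIs were also found in classes far below the connective tissue-like level. After thinning each cell to 1000 UMIs, 88.8% of connective tissue-like cells (87.9 to 89.7%) had a Crym UMI at P1, 71.1% at P7 (70.0 to 72.3%) and 6.09% at P14 (4.96 to 7.39%). Without thinning the shares were 97.4%, 92.98% and 8.81%, at median depths of 6463, 7337 and 1474 UMIs. In immune-like cells, taken here as a class without Crym expression, the thinned shares for P1, P7 and P14 were 12.3%, 17.7% and 0.297%, and the unthinned ones 40.4%, 47.5% and 2.62%, at median depths of 7385, 7049 and 2562 UMIs. In glia-like cells the thinned shares were 8.77%, 11.9% and 14.4%. At P1 and P7 the shares in glia-like, endothelium-like and pericyte and smooth muscle-like cells were at or below those of immune-like cells. The same held for neuron-like cells at P1, the only stage at which they were measured. In epithelium-like cells they were 19.6% at P1 (15.1 to 24.8%) and 26.0% at P7 (19.99 to 32.9%), with intervals that overlapped those of immune-like cells (7.96 to 17.9% and 12.4 to 24.2%). The immune-like class was itself uneven, since its cluster 16 (Lyz2 and Tyrobp) had 816 CPM of Crym at P1 and 1164 CPM at P7, and its macrophage-like cluster 23 (C1qb, C1qc and C1qa) had 158 CPM (133 to 186) and 185 CPM (154 to 221). The epithelium-like levels of 343 and 345 CPM lay between those of these clusters. So did the P1 and P7 levels of glia-like (195 and 214 CPM), endothelium-like (324 and 249 CPM) and pericyte and smooth muscle-like cells (483 and 295.5 CPM). Neuron-like cells at P1, at 129 CPM, were below both clusters. That immune-like cells lack Crym expression was assumed, and whether the levels of these other classes were background was not tested.

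The ratio of Crym to Otor, another abundant gene of the connective tissue-like cells, was also taken in each class. At P1 there were 56.6 Crym UMIs per 100 Otor UMIs in connective tissue-like cells, and in the other classes the ratio lay between 35.5 in immune-like and 64.1 in neuron-like cells. At P7 it was 39.6 in connective tissue-like cells and between 24.4 and 38.3 in the other classes. Single clusters varied more than these class values. At P1 the ratio was 7.99 in the unnamed cluster 3 and 172 in the connective tissue-like cluster 1, and at P7 10.95 and 59.7. Glia-like cells at P14 stood apart, with 128 Crym UMIs for 23 Otor UMIs, or 557 per 100 (355 to 909), against 10.3 per 100 (9.09 to 11.7) in connective tissue-like cells of the same library. These Crym UMIs lay mostly in cluster 20 (leading genes Mt3 and S100a6), a glia-like cluster of P14, where 310 cells had 124 UMIs and a level of 152 CPM (126 to 181). At P14 Crym was therefore highest in glia-like cells at 143 CPM (120 to 171), 1.55 times the level of connective tissue-like cells (1.25 to 1.92).

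**Figure D2:**
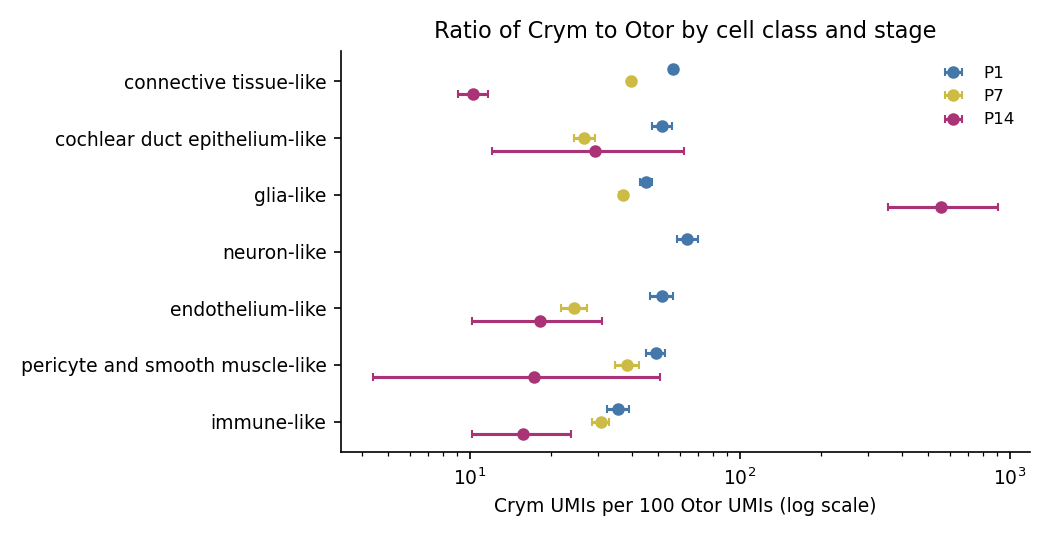
Crym UMIs per 100 Otor UMIs (log axis) in each cell class at P1, P7 and P14, with bars for the 95% counting interval. P1 and P7 classes lay between 24.4 and 64.1, while glia-like cells at P14 were at 557.

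Thra was found in every class. At P1 its level ran from 70.1 CPM in immune-like cells to 314 CPM (300 to 329) in neuron-like cells, with connective tissue-like cells at 281 CPM (276 to 286) and pericyte and smooth muscle-like cells at 257 CPM (234 to 280). The neuron-like level was 1.12 times the connective tissue-like level (1.06 to 1.17). At P7 connective tissue-like cells led at 243 CPM (238 to 247), followed by pericyte and smooth muscle-like cells at 195 CPM (175 to 216), while epithelium-like, endothelium-like and glia-like cells lay between 92.9 and 108 CPM and neighbours among these did not differ beyond counting error. At P14 the order from pericyte and smooth muscle-like cells at 152 CPM (83.0 to 255), through connective tissue-like cells at 121 CPM (109 to 135), to epithelium-like cells at 76.9 CPM (47.0 to 119) could not be resolved between neighbours. Immune-like cells were lowest at all 3 stages, with 41.1 CPM (34.0 to 49.1) at P14.

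Among clusters at P1, Thra was highest in cluster 4 (350 CPM, 339 to 361), an unnamed cluster led by LOC103694857, Hba-a2 and Col6a1, at 1.11 times the level of the neuron-like cluster 21 (1.05 to 1.18). At P7 it was highest in cluster 8 (323 CPM, 311 to 334), at 1.28 times the level of cluster 1 (1.22 to 1.34), and cluster 4 was at 237 CPM. At P14 the highest clusters, 13 at 153 CPM and 15 at 152 CPM, did not differ beyond counting error. Over the 17 clusters measured at both stages the P7 to P1 ratio of Thra ran from 0.481 in cluster 2 to 1.33 in cluster 16, with a median of 0.759. In glia-like cells Thra was at 161 CPM at P1, 92.9 CPM at P7 and 98.6 CPM at P14. The matrices do not separate the Thra transcripts for the hormone-binding receptor from those for the variant that does not bind hormone. The 3′ end of Thra also overlaps that of Nr1d1 on the opposite strand, and how strand was treated in counting is not given in the sources used here.

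Thrb was at its highest level in the epithelium-like cells at P1 and P7. They held 638 of its 5897 UMIs (10.8%) while being 1.89% of the kept cells, and connective tissue-like cells held 61.1%. At P1 Thrb was at 129 CPM (115 to 144) in epithelium-like cells, 29.7 CPM (25.5 to 34.4) in neuron-like and 20.3 CPM (18.9 to 21.8) in connective tissue-like cells. The epithelium-like level was 4.33 times that of neuron-like cells (3.59 to 5.24), the next class among those of at least 50 cells. At P7 it was 177 CPM (158 to 198), 3.24 times the connective tissue-like level of 54.7 CPM (52.7 to 56.9). Glia-like cells were low at both stages, at 3.36 CPM (2.34 to 4.67) and 3.97 CPM (3.17 to 4.91). The 21 hair cell-like cells, all from P1, had 36 Thrb UMIs, or 110 CPM (76.8 to 152), and 25 Thra UMIs, or 76.2 CPM (49.3 to 112).

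At P14 the epithelium-like level of Thrb was 42.3 CPM (21.1 to 75.7), from 11 UMIs in 79 cells, and P7 was 4.19 times higher (2.31 to 8.48). The P14 epithelium-like cells also differed in their markers. Tectb, a tectorial membrane protein, was at 385 CPM at P1, 1531 CPM at P7 and 3.85 CPM at P14. Kcne1, a potassium channel subunit of strial marginal cells, was at 9.32, 17.02 and 1116 CPM. The epithelial markers did not all go 1 way from P7 to P14. Tecta was lower at P14 (655 and 100 CPM), while Epyc was higher (3064 and 7048 CPM). The listed epithelial markers together were at 8214 CPM at P7 and 8787 CPM at P14. The part of this change of markers in the Thrb level was not tested.

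Thrb was higher at each later stage in connective tissue-like and endothelium-like cells. In glia-like, immune-like and pericyte and smooth muscle-like cells the intervals of both its P7 to P1 and its P14 to P7 ratio held 1, and neuron-like cells were compared at no later stage. In connective tissue-like cells it was at 20.3 CPM at P1, 54.7 CPM at P7 and 80.3 CPM (70.4 to 91.2) at P14, the P7 level being 2.69 times that of P1 (2.48 to 2.92) and the P14 level 1.47 times that of P7 (1.28 to 1.68). The P14 to P7 ratio had the opposite direction in a coarser clustering (resolution 0.4), with a log2 ratio of -0.22. In endothelium-like cells Thrb was at 8.87 CPM (16 UMIs) at P1, 20.3 CPM (31 UMIs) at P7 and 63.9 CPM (88 UMIs, 51.3 to 78.8) at P14, with P14 3.14 times P7 (2.07 to 4.90). Over the 10 clusters with enough UMIs the P7 to P1 ratio ran from 1.38 in the epithelium-like cluster 17 to 9.97 in cluster 7, with a median of 3.35. In 1 of the 10, the glia-like cluster 11, the interval held 1 (ratio 1.45, 0.827 to 2.68). Clusters with fewer UMIs went either way, with 0.801 (0.305 to 2.08) in cluster 16 and 2.29 (1.22 to 4.49) in cluster 10. In cluster 0 Thrb was at 24.5 CPM (22.4 to 26.7) at P1 and 86.0 CPM (78.5 to 94.0) at P7, and in cluster 12 at 50.8 CPM (38.8 to 65.4) and 102 CPM (95.2 to 110). Cluster 7 (Sp5, Cav1 and Olfm1) had 12.4 CPM (10.4 to 14.6) and 123 CPM (103 to 146).

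Thrb at P14 was measured mostly in clusters with few or no cells at the earlier stages. It was at 80.3 CPM (70.4 to 91.3) in the Coch cluster 6, 80.5 CPM (63.0 to 101) in cluster 18 (Clec3b, Gpcpd1 and Rarres1), 73.0 CPM (51.4 to 101) in cluster 24 (Slco1a4, Abcb4 and Sox17) and 63.9 CPM (51.3 to 78.8) in the endothelium-like cluster 10, which also had cells at P1 and P7, and these intervals overlapped. Cluster 13 (Ptgds, Slc7a11 and Slc16a11) was lower, at 21.8 CPM (15.2 to 30.3). After thinning, 14.9% of epithelium-like cells had a Thrb UMI at P1 (10.9 to 19.7%) and 16.7% at P7 (11.7 to 22.7%), against 0.272% and 0.350% of glia-like cells. The unthinned shares were 47.1% and 50.7% in epithelium-like cells, at median depths of 7541 and 6693 UMIs, and 1.41% and 2.08% in glia-like cells, at 4463 and 4897 UMIs.

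**Figure D3:**
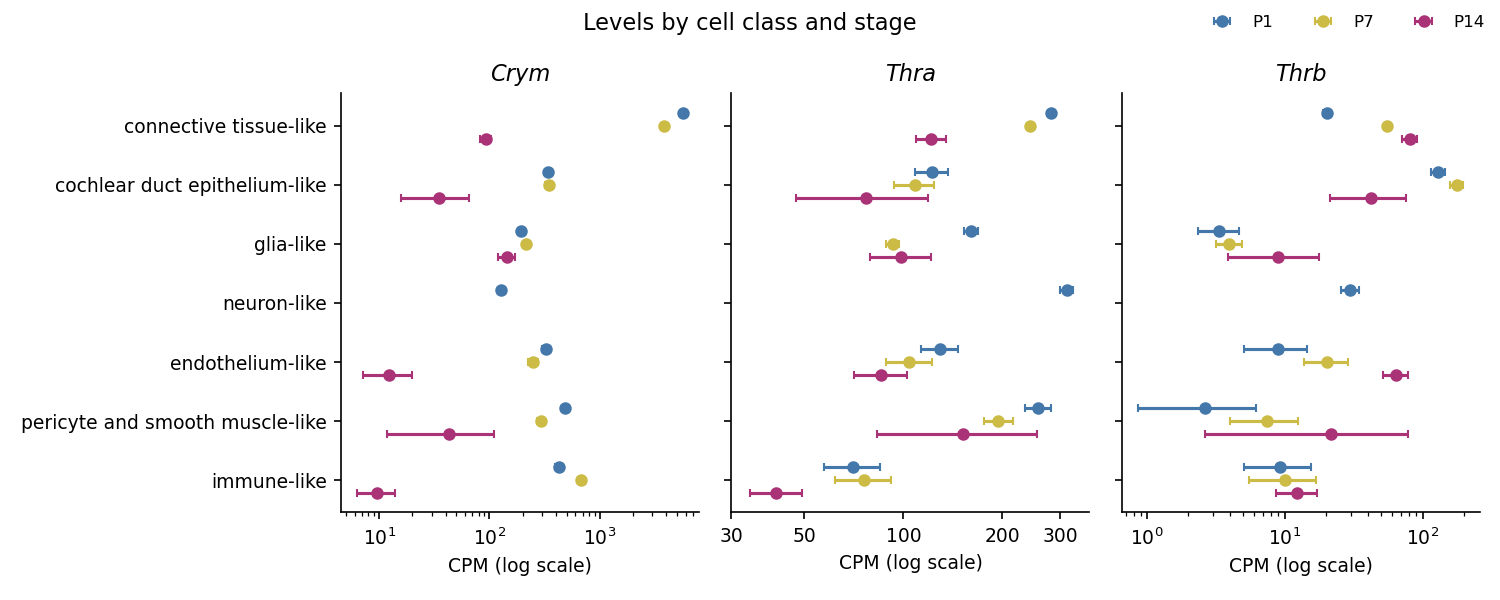
Level of Crym, Thra and Thrb in CPM (log axes) in each cell class with at least 50 cells at P1, P7 and P14, with bars for the 95% counting interval. Crym stood out in connective tissue-like cells at P1 and P7 (5660 and 3805 CPM), and Thrb in epithelium-like cells at P1 and P7 (129 and 177 CPM).

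Within classes, the members past 2-fold between stages were few. In connective tissue-like cells 1 of 3 members passed for P7 against P1 (Thrb higher), beside 22.3% of all genes tested there, and 1 of 3 for P14 against P7 (Crym lower), beside 32.8%. In epithelium-like cells none of 3 passed between P1 and P7 (16.7% of all genes), and 2 of 3, Crym and Thrb, were lower at P14 (34.8%). In glia-like cells none of 3 passed between P1 and P7 (21.9%) and 1 of 3, Thrb, was higher at P14 (37.2%), from 8 UMIs there and with a ratio of 2.26 whose interval of 0.944 to 4.65 held 1. In endothelium-like cells none of 2 passed between P1 and P7 (12.7%), and Crym was lower and Thrb higher at P14, making 2 of 3 (34.7%). In pericyte and smooth muscle-like cells none of 2 passed at P7 (11.1%) and 1 of 2, Crym, was lower at P14 (37.7%). In immune-like cells none of 2 passed at P7 (15.7%) and 1 of 3, Crym, was lower at P14 (36.3%). The lower Crym level at P14 outside the connective tissue-like class went with the lower Crym level of the whole library, and the part of free RNA in it was not tested.

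**Figure D4:**
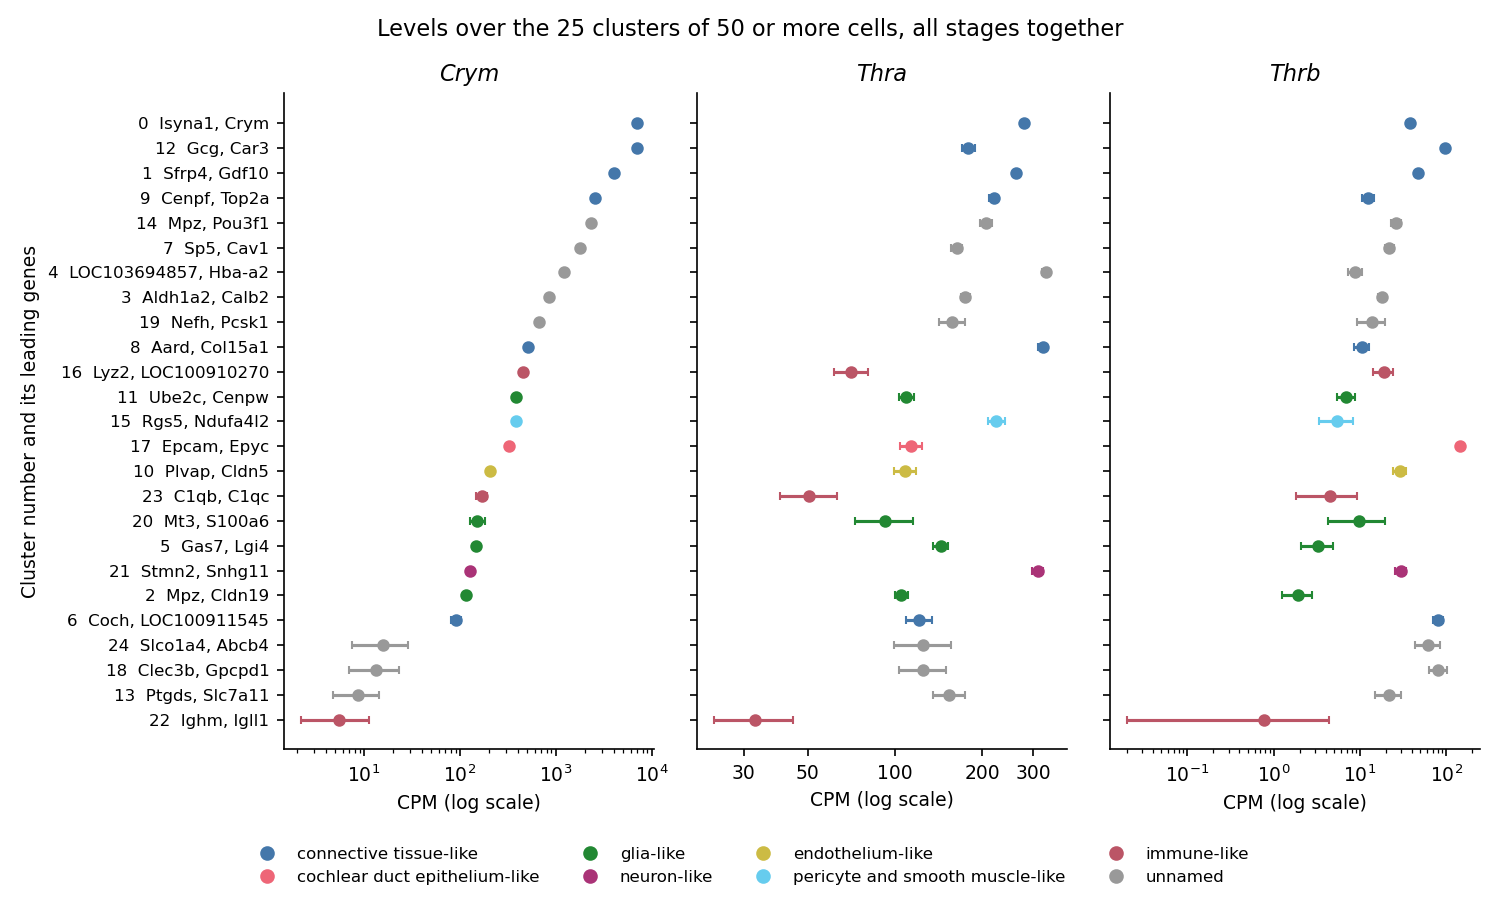
Level of Crym, Thra and Thrb in CPM (log axes) in the 25 clusters of at least 50 cells, ordered by Crym and coloured by cell class, with bars for the 95% counting interval. Crym ran from 5.46 to 6995 CPM, Thra from 32.8 to 333 CPM and Thrb from 0.781 to 144 CPM.

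The 23 Dio3 UMIs came from 21 cells. Cluster 13 of P14 held 9 of them in 9 cells, and cluster 6 of P14 held 5 in 3 cells. Cluster 13 thus had 5.54 CPM, and cluster 6 had 1.68 CPM. No Dio3 UMI was found in epithelium-like, neuron-like, endothelium-like, pericyte and smooth muscle-like or immune-like cells at any stage. A count of 0 allows up to 1.27 CPM in epithelium-like cells at P1, 1.65 CPM at P7 and 11.5 CPM at P14, so that Dio3 was not detectable there at this depth. Dio1, the third deiodinase gene, was found with 1, 8 and 2 UMIs at the 3 stages, all in epithelium-like cells of cluster 17, where it reached 2.48 CPM. The genes needed to make selenoproteins, a group that includes the deiodinases, were measured throughout, and Secisbp2, which binds the selenocysteine insertion element, was at 29.99, 32.04 and 30.8 CPM.

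Among the 7 membrane transporters reported here, 6 had enough UMIs. Between P1 and P7, 2 of 6 were 2-fold or more higher (Slco1c1 and Slco1a4), beside 11.2% of all genes, and 0 were lower, beside 12.4%. Between P7 and P14, 4 of 6 were higher (Slco1c1, Slco1a4, Slc7a5 and Slc7a8), beside 24.4% of all genes, and 0 were lower, beside 9.88%. The median log2 ratio of the 6 transporters was 0.82 for P7 against P1, beside 0.05 for all genes tested. For P14 against P7 it was 1.59, beside 0.26. Slco1c1, which carries T4, was at 30.9 CPM (3033 UMIs) at P1, 128 CPM (11884 UMIs) at P7 and 525 CPM (6109 UMIs) at P14. In connective tissue-like cells it was at 20.1, 155 and 1213 CPM, P7 being 7.69 times P1 (7.14 to 8.29) and P14 7.83 times P7 (7.52 to 8.15). At P14 1736 of the 1737 cells of this class were in cluster 6, which had 4 cells at P7. The P14 to P7 ratio is therefore one of unlike sets of cells. The highest clusters were the P14 clusters 6 (1200 CPM) and 18 (1171 CPM), both among the clusters high in Thrb. Immune-like cells at P14, in which Slco1c1 is not expected, were at 140 CPM.

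Slc7a8, an amino acid transporter that also carries thyroid hormone, was at 83.5, 130 and 285 CPM over all cells and led in clusters 6 (574 CPM) and 13 (568 CPM). Slco1a4, an organic anion transporter of brain capillaries, was at 36.0 CPM at P1, 173 CPM at P7 and 2322 CPM at P14 in endothelium-like cells, P14 being 13.5 times P7 (11.9 to 15.3). Slc7a5, whose protein pairs with that of Slc3a2, was also highest, among the named classes, in endothelium-like cells, at 215, 442 and 658 CPM.

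The hormone carrier Ttr, a plasma and cerebrospinal fluid protein, was found in the epithelium-like cells at 111 CPM at P1, 330 CPM at P7 and 315 CPM at P14, P7 being 2.99 times P1 (2.58 to 3.47). In connective tissue-like cells it was under 1 CPM at each stage. Of the receptor partners, Rxrb was even across clusters, between 16.4 and 60.8 CPM, and Rxrg was found in glia-like cells, at 104 CPM at P1, 109 CPM at P7 and 7.85 CPM at P14, when most glia-like cells were in cluster 20 rather than in clusters 2, 5 and 11. Rxra was under 4 CPM in every cluster of at least 50 cells.

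Of the 7 coregulators, 3 were 2-fold or more lower at P7 than at P1 (Ncoa2, Ncoa3 and Med1), beside 12.4% of all genes, and none was higher, beside 11.2%, while between P7 and P14 the coactivators Ncoa2 and Ncoa3 were higher, beside 24.4% of all genes, and Hdac3, the deacetylase of the corepressor complex, was lower, beside 9.88%. Their median log2 ratio was -0.78 for P7 against P1 and 0.75 for P14 against P7. The 3 hormone-responsive genes with enough UMIs were Klf9, Hr and Nrgn. Klf9, a zinc finger factor induced by thyroid hormone and by other signals, was at 146 CPM at P1, 75.2 CPM at P7 and 367 CPM at P14, the P14 level being 4.88 times that of P7 (4.69 to 5.07). Hr, a corepressor gene known as a direct target of the hormone, was at 0.398 CPM (39 UMIs) at P1, 4.95 CPM (461 UMIs) at P7 and 15.3 CPM (178 UMIs) at P14, P7 being 12.4 times P1 (8.97 to 17.7) and P14 3.09 times P7 (2.58 to 3.68). In connective tissue-like cells Hr had 3 UMIs at P1, 70 at P7 and 69 at P14, and in glia-like cells 16, 308 and 44. Hr was thus higher at each later stage in both of these classes, whose P14 cells were nearly all or mostly in other clusters (6 and 20) than at P7. Within the glia-like cluster 2, Hr was at 0.971 CPM at P1 (2 UMIs) and 14.8 CPM at P7 (188 UMIs). Klf9 was higher at P14 than at P7 in both but lower at P7 than at P1. Over the 33 pathway genes reported here, 26 had enough UMIs, of which 4 were higher and 4 lower at P7 than at P1, and 9 were higher and 3 lower at P14 than at P7. The shares of all genes at these calls were 11.2%, 12.4%, 24.4% and 9.88% in the same order, so that these counts were not read as particular to the pathway.

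**Figure D5:**
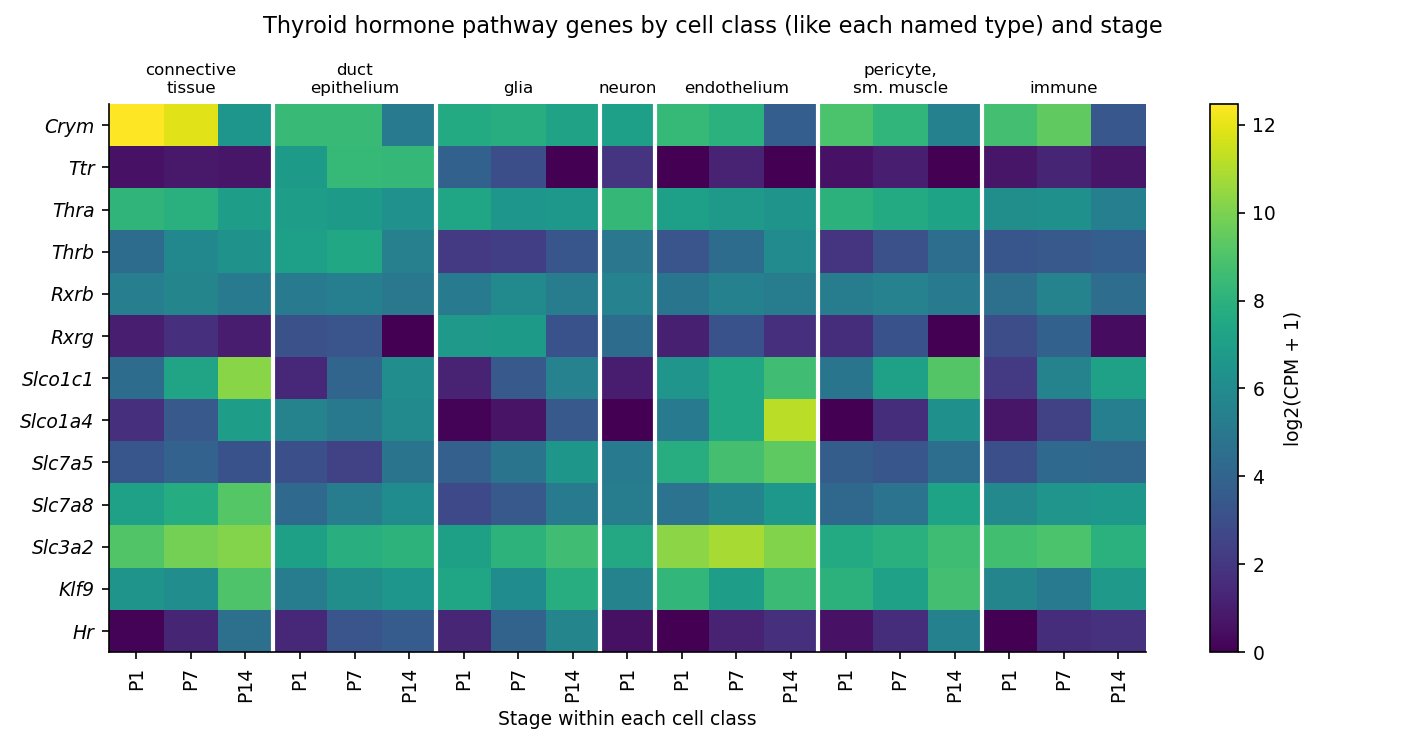
Levels of 13 thyroid hormone pathway genes as log2(CPM + 1), shown by colour, in each cell class with at least 50 cells at P1, P7 and P14. Crym was brightest in connective tissue-like cells at P1 and P7, Slco1c1 in connective tissue-like cells at P14 (1213 CPM) and Slco1a4 in endothelium-like cells at P14 (2322 CPM).

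Across the 25 clusters of at least 50 cells, which share 3 libraries and differ in depth, the patterns of the members were compared by Pearson's r of log2(CPM + 1). Crym and Thra had r = 0.56, Thra and Thrb r = 0.32, and Crym and Thrb r = 0.20. Among 7750 genes of at least 10 CPM, those most like Crym were Matn4 (r = 0.88), Rab26 (0.88), LOC102553088 (0.86), Tcte1 (0.85) and Mex3b (0.84). Those most like Thra were Podxl2 (0.93), Dact3 (0.91), Armcx2 (0.90), Nrep (0.90) and Klhdc8b (0.89). Those most like Thrb were the unnamed locus AABR07071876 (0.93), Tgfb2 (0.84), Osbpl6 (0.83), Lmo7 (0.83) and Clu (0.82). For Dio3 the highest were Klhl8 (0.77), Cisd2 (0.76), Cdc14a (0.73), Dennd4a (0.71) and Errfi1 (0.70), from 23 Dio3 UMIs in all, which is too sparse to be read as a pattern.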

How the data were processed

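The authors dissociated pooled rat cochlear tissue, made 10x Genomics Chromium 3′ libraries and deposited, per the labels, Cell Ranger matrices of raw UMI counts on genome rn6, with Seurat 3.1.1 named for their own analysis. The gene annotation and the rule for calling cells are not given in the sources used here. The deposited counts were used without normalization. The members and the lists of pathway genes (35) and markers (122) were chosen with earlier results of these data known, and some listed genes are not reported here.

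Barcodes were kept if their genes numbered above 500 and below 5000, their UMIs reached 500 and mitochondrial genes took under 25% of them (98005495, 93080129 and 11641065 UMIs at P1, P7 and P14). Clusters were found from 1990 variable genes and 10 principal components at resolution 0.8 and seed 0, using Seurat 5.3.0 under R 4.3.3. A cluster was named from its marker score (at least 1, and 1 above the next class, with 3 or more markers found, no more markers of another class in its 10 leading genes and under 50% Scrublet doublets), a rule set after values were seen. Scrublet (scanpy 1.11.5) marked 622, 775 and 2 cells; the 2 at P14 show that it did not work there, and marked cells were kept in the results. Levels are summed counts in CPM with exact Poisson intervals; ratios have exact conditional intervals. UMIs count molecules, and the intervals cover counting error only. Shares were thinned to 1000 UMIs, which left out 37, 193 and 735 cells, with exact binomial intervals. Groups under 50 cells were not compared, and the limit for a count of 0 is 3 counts. Genes named are the members, the pathway genes by role, 3 leading genes per cluster (10 CPM added, in at least 25% of cells) and the 5 genes most like each member. Python 3.11.15, numpy 2.4.6, scipy 1.17.1 and matplotlib 3.10.9 were used, and the fold calls and intervals were tested on simulated data. The alternatives tried were a 10% mitochondrial limit, leaving out Scrublet cells, mean CPM per cell, resolutions 0.4 and 1.2, 20 principal components, pathway genes kept for clustering, a weaker count filter and, chosen after seeing the data, leaving out P14.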

Additional observations from a re-analysis of the deposited data

Results flagged for a closer look

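Thrb differed in opposite directions between P7 and P14 in different classes, with a log2 ratio of 1.65 in endothelium-like cells and -2.07 in cochlear duct epithelium-like cells. Crym differed in opposite directions between P1 and P7, with a log2 ratio of P7 to P1 of 0.67 in immune-like cells and -0.71 in pericyte and smooth muscle-like cells. Immune-like cells were taken as a class without Crym expression, and the share of pericyte and smooth muscle-like cells with a Crym UMI did not exceed theirs. By CPM, pericyte and smooth muscle-like cells were at 483 and immune-like cells at 428 at P1, a ratio of 1.13 (1.02 to 1.25). At P7 they were at 295.5 and 680 CPM. Whether either log2 ratio is a difference in Crym expression of those cells was not tested. Both pairs were taken up because each side was at least 1.5-fold with a counting interval that left out no difference, and with 1 library per stage the difference between classes was not tested. The immune-like Crym ratio was 0.24 with a 10% mitochondrial limit and 0.89 without the cells marked by Scrublet.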

How the results depend on the processing

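No paired analysis was possible because each stage has 1 library and no replicate. The Dio2 alternatives were not run. Values are log2 ratios, and a value was taken to move when it left the counting interval of the reported value. With a mitochondrial limit of 10%, P7 to P1 was -0.15 for Crym, -0.28 for Thra and 1.49 for Thrb, and P14 to P7 was -5.99 for Crym, -1.03 for Thra and 0.041 for Thrb. With the mean of each cell's CPM, P7 to P1 was -0.44 for Crym, -0.40 for Thra and 1.07 for Thrb, and P14 to P7 was -0.83 for Thra and 0.37 for Thrb. Without the cells marked by Scrublet, Crym P7 to P1 was -0.25. No ratio over all kept cells changed direction. The ratio of Crym in its leading class, connective tissue-like cells, to all other cells was 2.58 and became 1.99 with the 10% limit, 3.14 without Scrublet cells, 2.84 at resolution 0.4, 2.12 at resolution 1.2, 2.33 with 20 principal components, 2.61 with the pathway genes kept, 2.91 with the mean of each cell's CPM and 2.52 without P14. For Thrb in epithelium-like cells the ratio of 2.44 became 2.78 with the mean of each cell's CPM and 2.56 without P14. For Thra the leading class was neuron-like at 0.60, became connective tissue-like at 0.84 with the 10% limit, and was 0.51 at resolution 0.4. The leading class of Dio3 was not settled, with glia-like at -0.36 (an interval of -2.75 to 1.39), connective tissue-like at 2.15 at resolution 0.4, an erythroid-like group at 3.14 with the pathway genes kept, and glia-like at 1.59 without P14. Of the ratios within classes, 2 changed direction, Crym P7 to P1 in endothelium-like cells (0.10 without Scrublet cells, against -0.38) and Thrb P14 to P7 in connective tissue-like cells (-0.22 at resolution 0.4, against 0.55), 40 others moved and 207 did not; the cause was not tested. With the 10% limit, under 50 connective tissue-like cells were left at P14 and no ratio was given. The genes past 2-fold numbered 3513 between P1 and P7 and 4788 between P7 and P14, and 5427 and 7324 when 1 UMI in each stage was enough. Among all alternatives to the ratios over all kept cells, the leading-class ratios and these gene counts, 29 values moved and 33 did not. Gene counts were judged by a fold margin in place of a counting interval. The lower depth at P14 limits low levels, by an amount that depends on the summed UMIs of a group. A count of 0 at P14 allowed up to 1.03 CPM in immune-like, 2.18 CPM in endothelium-like and 3.36 CPM in glia-like cells. In epithelium-like cells it allowed up to 11.5 CPM, and in pericyte and smooth muscle-like cells up to 32.5 CPM.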

Other observations

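Nrgn, a postsynaptic calmodulin-binding protein whose gene is known to respond to thyroid hormone in brain, was at its highest level in endothelium-like cells here, at 159 CPM at P1, 144 CPM at P7 and 241 CPM at P14. Its highest cluster was the endothelium-like cluster 10 at 178 CPM, followed by cluster 24 (Slco1a4, Abcb4 and Sox17) at 155 CPM. Hr was highest in the glia-like cluster 20 of P14, at 52.3 CPM, followed by cluster 13 at 23.4 CPM. Slc26a5, the outer hair cell motor protein gene, was at 0 in 23 of the 25 clusters of at least 50 cells. The other 2, clusters 14 and 0, were at 0.123 and 0.0372 CPM. The hair cell-like cluster 25, with 21 cells, is not among these 25, so the count says nothing about hair cells.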
